A study of Mus musculus with 6 samples.

Results

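The transcripts described here are those of 44 genes of the unfolded protein response and of protein folding, degradation and export in the endoplasmic reticulum (ER), taken by gene symbol from the 23183 genes listed for each library. All 44 were listed, and 43 of them were among the 10501 genes tested. The rule is a list of symbols, drawn up with earlier results of these data known, and the genes are grouped by role. RNA was sequenced from primary wild-type mouse lung group 2 innate lymphoid cells (ILC2), lymphocytes without antigen receptors that secrete large amounts of type 2 cytokines. One group received the isotype control antibody IgG2b (3 libraries) and the other DTA-1, an agonist antibody against GITR, a receptor of the TNF receptor family (3 libraries). Both groups were stimulated with IL-2, IL-7 and IL-33 at 10 ng/ml, and RNA was taken at 24 h, so no library shows the genes without cytokines. The question posed by the design is what the agonist antibody does to gene expression in ILC2 that are already stimulated. Samples were assigned by their titles, and the antibody names in some treatment tags (IgG3b, IgG4b, DTA-2 and DTA-3) differ from these. Whether replicates were separate animals or cultures is not stated, and the p-values therefore refer to the spread among these 6 libraries, which may be technical only.

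Secreted and membrane proteins enter the ER through the Sec61 channel, lose their signal peptide, are folded by chaperones and disulfide enzymes and leave in COPII vesicles, while proteins that fail to fold are sent back to the cytosol for degradation. Unfolded protein in the ER activates the sensors IRE1 (gene Ern1), PERK (Eif2ak3) and ATF6, and the transcription factors spliced XBP1, cleaved ATF6 and ATF4 then raise chaperone, degradation and amino acid genes. Secretory lymphocytes such as plasma cells depend on this response when they make large amounts of protein.

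The deposited values were taken as FPKM, fragments scaled to transcript length and library size, with totals of 574195 to 606724 per library and steps between low values that correspond to about 18700000 to 20600000 fragments. All 14 ILC2 markers examined, among them Gata3, Il1rl1 and Il13, reached 1 FPKM in at least 3 libraries. Their summed level was 6640.0 to 7850.0 FPKM in the isotype libraries and 10300.0 to 11900.0 in the DTA-1 libraries, with Il13 the most abundant. Il13 (means of 2326 and 5422 FPKM) and Il5 (2169 and 3183 FPKM) carried that higher sum, while most of the other markers lay below 0, and Il1rl1 (log2 fold change -0.46) and Klrg1 (-1.73) were lower in every DTA-1 library than in any isotype library. None of the 14 passed the adjusted p in limma with all libraries weighted equally. With library quality weights, Il13 (limma adjusted p = 0.00803) and Il5 (0.0408) passed higher, and Il1rl1 (0.0292) and Il17rb (0.0259) passed lower. Of the 10 B and plasma cell markers listed, Cd79b, Jchain and Sdc1 reached 1 FPKM, Pax5 and Tnfrsf17 were at 0, and the summed level was 6.49 to 11.6 FPKM against 6.38 to 8.64. Of 9 T cell markers, 3 reached 1 FPKM (50.8 to 54.9 against 39.2 to 58.6 FPKM summed), chiefly Lef1. Cd28 (log2 fold change -1.10) and Cd3g (-0.25) were lower in every DTA-1 library, and Lef1 lay at 0.06. With quality weights Cd28 passed lower (limma adjusted p = 0.0149). At most 1 marker each reached 1 FPKM for NK cells, macrophages, dendritic cells, granulocytes and mast cells, epithelium, and endothelium with fibroblasts. These were Cd68 (log2 fold change -0.30), Xcr1 (-0.45), Epcam (-0.93) and, at a mean of 31.4 FPKM, Pecam1 (-0.45). Epcam alone of them had separate groups and passed lower with quality weights (limma adjusted p = 0.0141). All 18 genes of an S phase and DNA replication list lay lower in every DTA-1 library than in every isotype library, with a median log2 fold change of -0.69, and none passed the adjusted p in limma, although all 18 had an unadjusted p under 0.05. With library quality weights all 18 passed (adjusted p 0.0127 to 0.0314), and with the replicate number as a block 8 did. The part of these genes in the results was not tested. Isotype replicate 2 deviated from the other libraries in step with GC content, and the comparison was repeated without it. In bulk RNA, fewer cells of a type and less RNA per cell cannot be told apart.

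No ER gene passed an adjusted p of 0.05 with DTA-1 in limma, where 0.0286% of all tested genes passed higher and 0.00952% lower. The median log2 fold change of the 43 tested ER genes (DTA-1 against isotype, on the log2(FPKM + 1) scale) was -0.07 against 0.01 over all tested genes, with 15 above 0 and 28 below. At an unadjusted p under 0.05 none lay higher, against 6.22% of all genes. At the same level 3 lay lower (6.98%, against 7.73% of all genes), namely Hsp90b1, Sdf2l1 and Manf. For 8 ER genes (18.6%, against 10.5% of all genes) every DTA-1 library lay below every isotype library. These were Atf6, Xbp1, Hsp90b1, Dnajb11, Sdf2l1, Manf, Creld2 and Pdia6. The reverse held for 3 (6.98%, against 11.2%), Eif2ak3, Sel1l and Spcs1, and the groups of the other 32 overlapped. Of the 8 lower genes, 5 belonged to the role of the HSP70 system and soluble chaperones, which holds 9 of the genes. None of the 9 translocon genes and none of the 3 COPII genes was among them.

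**Figure D1:**
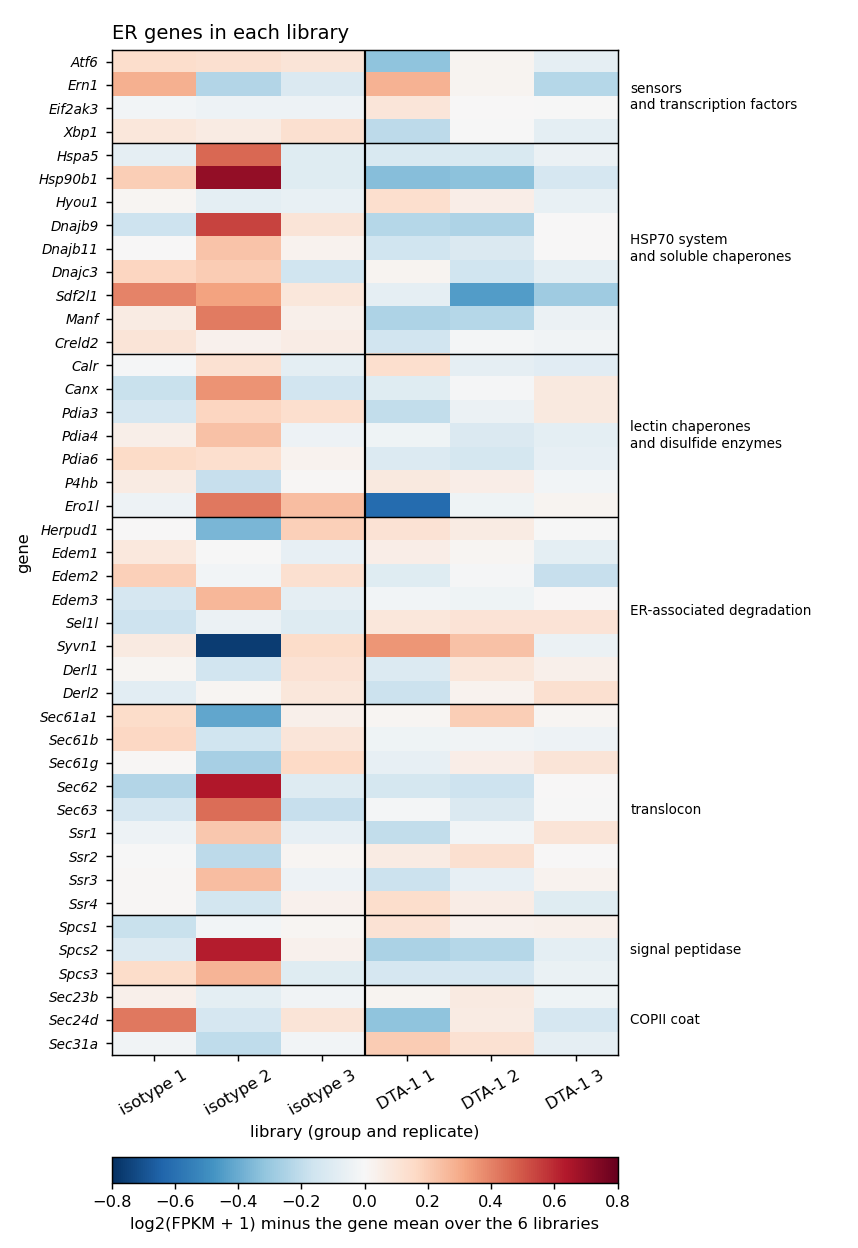
Deviation of each tested ER gene (rows, grouped by role) from its own mean over the 6 libraries (columns), on the log2(FPKM + 1) scale, red above and blue below the mean. Isotype replicate 2 carries the darkest cells, in both directions, and the rows of Sdf2l1 and Manf are red in the 3 isotype libraries and blue in the 3 DTA-1 libraries.

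Some of these genes carry in their promoters the ER stress response element (ERSE), CCAAT and CCACG separated by 9 bases, through which ATF6 and XBP1 are known to act. RefSeq promoters on GRCm38.p6, from 250 bases before to 50 bases after the start, were matched for 37 of the 44 genes (Ero1l under its newer symbol Ero1a). Atf6, Hyou1, Manf, Derl1, Sec61a1, Ssr2 and Spcs3 were not matched. On either strand, 9 of the 37 genes (24.3%) had an ERSE, against 0.137% of the 27025 genes in the table (0.119% of its 32851 promoters). The sites are shown because so few other genes hold the element. Each is written 5′ to 3′ in the direction in which CCAAT comes first, with CCAAT and CCACG in capitals.
Hspa5, chr2:34772020-34772048: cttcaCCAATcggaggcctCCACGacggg
Hsp90b1, chr10:86705626-86705668: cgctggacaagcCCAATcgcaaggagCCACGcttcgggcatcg
Hsp90b1, chr10:86705521-86705563: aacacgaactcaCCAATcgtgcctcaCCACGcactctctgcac
Pdia6, chr12:17266479-17266521: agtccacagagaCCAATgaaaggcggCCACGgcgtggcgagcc
Creld2, chr15:88819508-88819550: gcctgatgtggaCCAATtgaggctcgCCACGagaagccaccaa
Dnajc3, chr14:118937815-118937857: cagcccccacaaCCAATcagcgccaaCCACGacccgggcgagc
Calr, chr8:84847063-84847105: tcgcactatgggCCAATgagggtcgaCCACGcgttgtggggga
Canx, chr11:50325788-50325830: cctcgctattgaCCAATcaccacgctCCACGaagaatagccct
Syvn1, chr19:6046520-6046562: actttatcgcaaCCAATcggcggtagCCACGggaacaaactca
Derl3, chr10:75893230-75893272: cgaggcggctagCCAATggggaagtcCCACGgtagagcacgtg

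The ERSE of Hspa5, Pdia6, Dnajc3, Canx and Syvn1 and the farther one of Hsp90b1 read on the strand of the gene. Those of Creld2, Calr and Derl3 and the nearer one of Hsp90b1 read on the other strand. Hsp90b1, Calr and Canx are genes of the minus strand and the others shown are genes of the plus strand. Hsp90b1 had a pair of sites, the farther from -212 to -194 and the nearer from -107 to -89 relative to the start. The site closest to a start was that of Syvn1, from -44 to -26. The Hspa5 stretch, with its site from -65 to -47, overlaps a GENCODE exon of the ER genes, and the other 9 ERSE stretches shown do not. Exons of other genes were not checked.

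A related element, ERSE-II (ATTGG, 1 base, CCACG), was found in 2 of the 37 genes (5.41%, against 0.0444% of all genes), and is shown with both of its parts in capitals.
Herpud1, chr8:94386365-94386399: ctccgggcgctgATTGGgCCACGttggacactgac
Dnajb11, chr16:22857847-22857867: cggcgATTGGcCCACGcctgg

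The Dnajb11 match lies after the annotated start and is lost if only the 250 bases before the start are searched, whereas the count of genes with an ERSE stays at 9. The core of the XBP1 site, TGACGTGG, was in 1 gene, Sec24d (2.70%, against 0.714% of genes). The cyclic AMP response element TGACGTCA was in the windows of none of the 37 genes and of 2.03% of all genes. CCACG alone, which is part of both elements, was in 29 of the 37 (78.4%, against 35.5%). The 10 tested genes with an ERSE or ERSE-II had a median log2 fold change of -0.14 and ran from -0.54 (Hsp90b1) to 0.36 (Syvn1), with 8 below 0. The 26 tested genes with a promoter but neither element had a median of -0.07, with 17 below 0. The ranges of both sets overlap over nearly their whole length. Of the 10 genes, 4 had separate groups lower and 0 higher, and of the 26 genes 2 lower and 3 higher. Over all tested genes 10.5% were separate lower and 11.2% higher. The difference between the sets was not tested. A match describes the letters only and is no evidence of binding.

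Among the sensors and transcription factors, Atf6 and Xbp1 lay lower in each DTA-1 library than in any isotype library and Eif2ak3 slightly higher, and none passed the test. Atf6, the membrane-bound factor that is cut in the Golgi under stress, measured 15.2, 15.0 and 14.7 FPKM in isotype replicates 1 to 3 and 10.7, 13.9 and 12.98 FPKM in DTA-1 replicates 1 to 3. The isotype values lie within 0.45 FPKM of each other and DTA-1 replicate 1 is the lowest, with a log2 fold change of -0.24 (SE 0.13; limma adjusted p = 0.446), and -0.14 without that library. Xbp1, whose messenger RNA is spliced by IRE1 into the form that encodes the active factor, measured 83.4, 81.9 and 85.5 FPKM with the isotype and 67.3, 78.1 and 73.9 FPKM with DTA-1. The groups do not overlap, and the log2 fold change was -0.19 (SE 0.11; limma adjusted p = 0.484). The tables give 1 value per gene, so spliced and unspliced Xbp1 were not separated and the activity of IRE1 is not measured here.

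The other sensors differed less. Eif2ak3, the kinase PERK that slows translation by phosphorylating eIF2 alpha, measured 11.7, 11.5 and 11.5 FPKM with the isotype and 12.8, 11.9 and 11.8 FPKM with DTA-1. The groups are separate, though not once the GC and length trend is removed, and the log2 fold change of 0.07 is smaller than its SE of 0.11. Ern1, the kinase and RNase IRE1, measured 30.2, 20.8 and 22.6 FPKM against 29.95, 24.9 and 20.8 FPKM. Replicate 1 was the highest library in both groups, and the groups overlap over almost their whole range, with a log2 fold change of 0.04, or -0.06 without isotype replicate 2.

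The HSP70 system and soluble chaperones of the ER, Hsp90b1 and Creld2 among them, formed the role with the largest share of lower genes. Of its 9 genes, 8 lay below 0, as did 47.4% of all tested genes, and the median log2 fold change was -0.20. The groups did not overlap for 5 lower genes (55.6%, against 10.5% of all genes). The summed level of the 9 genes was 1521, 1987 and 1378 FPKM in isotype replicates 1 to 3 and 1260.0, 1240.0 and 1344 FPKM in DTA-1 replicates 1 to 3. All 3 DTA-1 sums lie below the lowest isotype sum, and isotype replicate 2 stands 466 FPKM above the next library. The sum is carried by Hspa5 and Hsp90b1, which had the highest levels of the role.

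Sdf2l1 (GRCm38 chr16:17130138-17132383, minus strand), which forms a complex with BiP and ERdj3 in the ER lumen, had the lowest p-value of the 43 genes. It measured 134, 127 and 108 FPKM with the isotype and 96.3, 74.1 and 83.0 FPKM with DTA-1, means of 123 ± 13.4 and 84.5 ± 11.2 (SD, n = 3). Every DTA-1 library lies at least 11.7 FPKM below the lowest isotype library. The log2 fold change was -0.54 (SE 0.14; limma adjusted p = 0.157). It was -0.51 without isotype replicate 2 and -0.61 with the trend on GC content and transcript length removed. With libraries weighted by their quality its adjusted p was 0.0269, the one setting in which an ER gene passed. Over the alternatives, its adjusted p ran from 0.0269 to 0.467.

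Hsp90b1 (chr10:86690209-86705509, minus strand), which encodes the ER-resident HSP90 chaperone GRP94, measured 538, 766 and 438 FPKM with the isotype and 370.1, 374 and 428 FPKM with DTA-1. The groups do not overlap, but isotype replicate 3 and DTA-1 replicate 3 are only 10.4 FPKM apart, and isotype replicate 2 stands 228 FPKM above the next library. The log2 fold change was -0.54 (SE 0.20; limma adjusted p = 0.273), and -0.32 without isotype replicate 2. Manf (chr9:106838312-106891979, minus strand), a BiP-binding cofactor that is also secreted, measured 124, 159 and 122 FPKM with the isotype and 99.96, 100.9 and 114.6 FPKM with DTA-1. Its log2 fold change was -0.35 (SE 0.14; limma adjusted p = 0.304), and -0.23 without isotype replicate 2. Both genes share exon bases with another annotated gene on their own strand, Hsp90b1 with Gm15344 and Gm25745 and Manf with Rbm15b, so part of their reads may belong elsewhere.

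Hspa5 (chr2:34771970-34777547, plus strand), which encodes BiP, the HSP70 chaperone that also holds the sensors inactive, is the usual readout of the response. It measured 421, 611 and 415 FPKM with the isotype and 407, 407 and 429 FPKM with DTA-1. Of the 6 libraries, 5 lie within 22.1 FPKM of each other and isotype replicate 2 stands alone above them. The log2 fold change of -0.20 (SE 0.16; limma adjusted p = 0.665) became -0.01 without that library. Dnajb9, the BiP cochaperone ERdj4, had the same shape, at 18.1, 30.1 and 22.0 FPKM with the isotype and 17.2, 17.0 and 20.4 FPKM with DTA-1. Its log2 fold change was -0.32 with all libraries and -0.13 without isotype replicate 2.

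The remaining chaperones of this role differed by smaller amounts. Dnajb11, the cochaperone ERdj3, measured 95.6, 111.7 and 97.2 FPKM with the isotype and 85.3, 88.0 and 95.6 FPKM with DTA-1. The lowest isotype library and the highest DTA-1 library are only 0.01 FPKM apart, and the groups overlap once the GC and length trend is removed. The log2 fold change was -0.18, and -0.11 without isotype replicate 2. Creld2, an ER protein induced by stress, measured 64.3, 61.1 and 62.2 FPKM against 53.5, 59.1 and 58.4 FPKM, a log2 fold change of -0.13 (SE 0.10; limma adjusted p = 0.649). The Creld2 groups do not overlap, also once the GC and length trend is removed. Hyou1, the nucleotide exchange factor of BiP, was the one gene of the role above 0, at 89.1, 83.7 and 84.5 FPKM with the isotype and 96.9, 91.4 and 84.7 FPKM with DTA-1. Dnajc3, the cochaperone P58IPK, had overlapping groups and a log2 fold change of -0.14, which ran from -0.26 without isotype replicate 3 to -0.08 without isotype replicate 2.

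**Figure D2:**
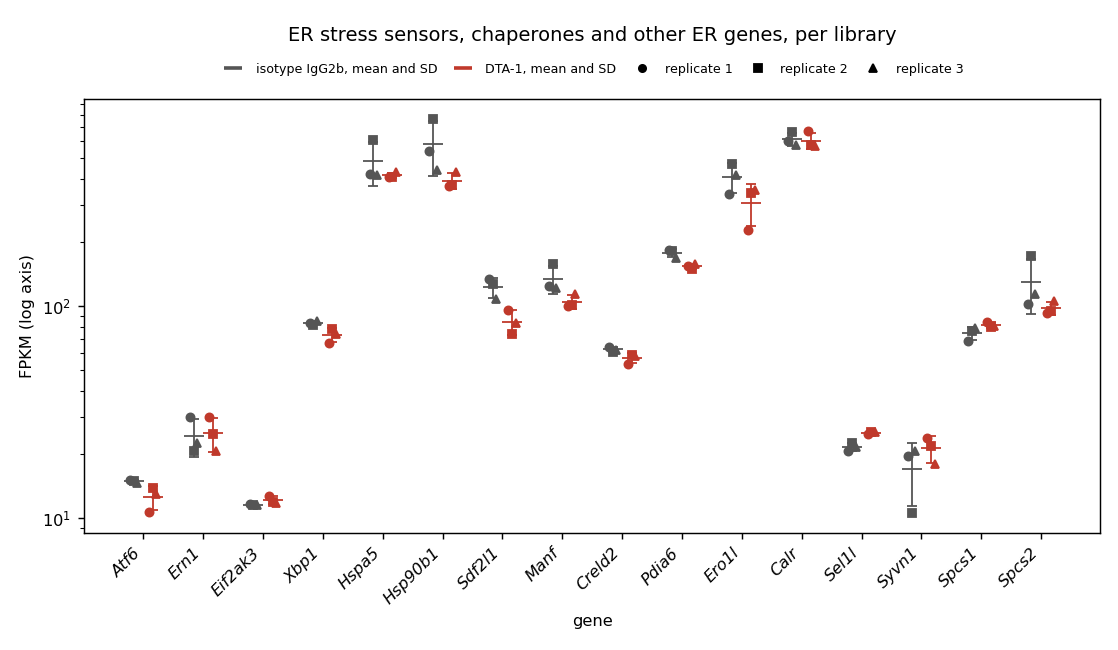
Level of 16 ER genes in each library in FPKM on a log axis, isotype in grey and DTA-1 in red, with the marker shape giving the replicate and the lines the mean and SD of 3 libraries. For Hspa5 the isotype square (replicate 2, 611 FPKM) stands alone above 5 libraries between 407 and 429 FPKM, whereas the 3 DTA-1 values of Sdf2l1 (74.1 to 96.3 FPKM) all lie below the isotype values (108 to 134 FPKM).

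Isotype replicate 2 stood apart among the ER genes. It held the highest value of 17 of the 43 genes (39.5%, against 28.0% of all tested genes) and the lowest of 13 (30.2%, against 28.1%). It was the highest library for 6 of the 9 genes of the HSP70 system and soluble chaperones. Its mean absolute deviation from the gene means was 0.25 on the log2 scale over the 43 genes, against 0.07 to 0.15 in the other libraries. Over all tested genes the contrast was smaller, at 0.24 against 0.22 in isotype replicate 1 and 0.20 in DTA-1 replicate 1, and DTA-1 replicate 1 held the highest value of 25.3% of them. DTA-1 replicate 1 was the lowest library for 13 genes (30.2%, against 16.3% of all genes).

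The deviation of isotype replicate 2 went with base composition. Across the 43 genes, which share a library and its depth, Spearman's rho between the deviation in that library and the GC content of the transcript was -0.58, close to the -0.57 over 10449 tested genes. In the other 5 libraries rho over the ER genes ran from -0.33 to 0.43. Of the 21 genes with a GC content below the ER gene median of 47.7%, 17 lay above their own mean in isotype replicate 2, with a median deviation of 0.24. Of the 22 at or above it, 7 did, with a median of -0.10. Hsp90b1, Sec62 and Spcs2 are examples of the first kind and Syvn1 and Sec61a1 of the second. The part of base composition in the differences between groups was not tested beyond 2 recomputations, which follow.

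Without isotype replicate 2, 11 ER genes had every DTA-1 library below both isotype libraries, against 15.9% of all genes, and 6 the reverse, against 19.2%. The 8 genes separated in the full comparison are among the 11 by construction, since leaving out a library cannot make separate groups overlap. The added ones were Edem2, Sec24d and Sec61b. Fewer libraries make such a separation easier for any gene. At an unadjusted p under 0.05, 4 then lay lower (all genes 8.75%) and 1, Sel1l, higher (6.66%), and the median of the 43 genes was -0.05. None passed the adjusted p, against 0.0288% of all genes higher and 0.0% lower. With the trend on GC content and length removed from each library, 10 genes were separated lower (all genes 11.8%) and 3 higher (14.2%), with a median of -0.06. At an unadjusted p under 0.05, 4 lay lower (8.82%) and 1 higher (8.52%), and none passed the adjusted p, against 0.00957% of all genes in each direction. Of the original 8 lower genes, 7 remained, and Dnajb11 did not. Of the original 3 higher genes only Sel1l remained, joined by Ssr2 and Sec31a. Weighting the libraries by quality instead gave 6 ER genes lower (all genes 10.6%) and 1 higher (8.93%) at an unadjusted p under 0.05, and Sdf2l1 alone passed the adjusted p, against 1.53% of all genes higher and 2.99% lower.

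**Figure D3:**
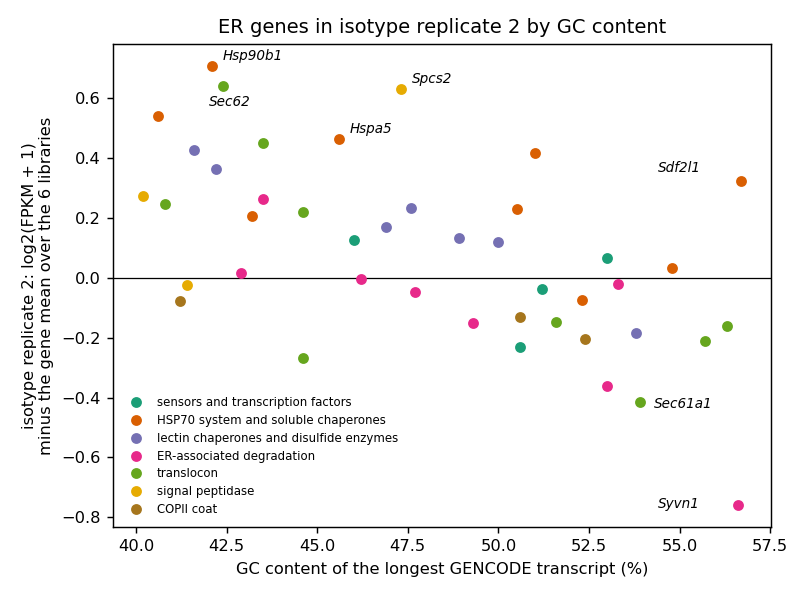
Deviation of isotype replicate 2 from the mean of each of 43 ER genes on the log2(FPKM + 1) scale, against the GC content of the longest GENCODE transcript in percent, with points coloured by role. Points fall from upper left to lower right (rho -0.58), with Hsp90b1, Sec62 and Spcs2 at the top and Syvn1 at the bottom, while Sdf2l1 lies above 0 at a high GC content.

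Lectin chaperones and disulfide enzymes fold glycoproteins and form disulfide bonds, which cytokines carry. Of the 7 genes, 6 lay below 0 with a median log2 fold change of -0.11, and Pdia6 alone had separate groups. Pdia6, a disulfide isomerase that also regulates IRE1, measured 185, 182 and 169.7 FPKM with the isotype and 154, 150.4 and 159 FPKM with DTA-1. The groups do not overlap, and the log2 fold change was -0.21 (SE 0.10; limma adjusted p = 0.408), and -0.20 without isotype replicate 2. Ero1l, the oxidase that recharges the disulfide isomerases, had the lowest log2 fold change of the role at -0.42 (SE 0.19; limma adjusted p = 0.393). It measured 339.9, 469 and 414 FPKM with the isotype and 228, 341 and 354 FPKM with DTA-1. DTA-1 replicate 1 is far below the other libraries, and isotype replicate 1 falls just below DTA-1 replicates 2 and 3, so the groups overlap. Without DTA-1 replicate 1 the log2 fold change was -0.22.

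Calr and Canx, the calcium-binding lectins that retain unfinished glycoproteins, had log2 fold changes near 0. Calr, the most abundant of all 44 genes, measured 603, 660.1 and 575 FPKM with the isotype and 668, 577 and 569.6 FPKM with DTA-1, with the highest library in the DTA-1 group and a log2 fold change of -0.02 (SE 0.12). Canx measured 312, 453 and 316 FPKM against 329, 349 and 371 FPKM. Its log2 fold change was -0.02 (SE 0.16), but 0.16 without isotype replicate 2. P4hb, the founding disulfide isomerase, was the one gene of the role above 0, at 217, 182 and 208 FPKM with the isotype and 219, 215 and 204 FPKM with DTA-1. Its log2 fold change was 0.07, and -0.002 without isotype replicate 2. Pdia3 and Pdia4, isomerases that serve glycoproteins and bulk cargo, had log2 fold changes of -0.11 and -0.16 with overlapping groups, and of -0.06 and -0.08 without isotype replicate 2.

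The genes of ER-associated degradation, which recognise misfolded proteins and pass them through the membrane, were balanced. Of 8 tested genes, 4 lay above and 4 below 0, with a median log2 fold change of 0.00. Sel1l, the adaptor that holds the HRD1 ubiquitin ligase complex together, was the one gene of the role with separate groups. It measured 20.8, 22.7 and 21.8 FPKM with the isotype and 25.1, 25.4 and 25.4 FPKM with DTA-1, so that the DTA-1 libraries lie within 0.34 FPKM of each other. The log2 fold change was 0.21 (SE 0.10; limma adjusted p = 0.422) and it did not change sign in any alternative. With separate groups, only scaling or removal of the GC and length trend could have turned that sign. Syvn1, the ligase HRD1 itself, measured 19.6, 10.6 and 20.7 FPKM against 24.0, 22.0 and 17.9 FPKM. The low value is isotype replicate 2, and the log2 fold change of 0.36 (SE 0.24) fell to 0.07 without it.

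Edem2, a mannosidase that starts glycoprotein disposal, measured 32.97, 28.4 and 31.6 FPKM with the isotype and 26.8, 28.6 and 25.3 FPKM with DTA-1. Its log2 fold change of -0.20 was the lowest of the role, and the groups overlap only through isotype replicate 2 and DTA-1 replicate 2. Herpud1, a membrane scaffold of the ligase complex and an early stress gene, measured 59.9, 46.3 and 68.3 FPKM against 64.8, 62.7 and 59.8 FPKM. With all libraries its log2 fold change was 0.12, and without isotype replicate 2 it was -0.03. Edem1, Edem3, Derl1 and Derl2, relatives of Edem2 and members of the derlin family, lay between -0.04 and 0.01, and between -0.06 and 0.09 without isotype replicate 2. Derl3, the derlin known from plasma cells and pancreas, was near the floor at 0.383, 0.353 and 0.327 FPKM with the isotype and 0.127, 0.198 and 0.356 FPKM with DTA-1, and was not tested.

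**Figure D4:**
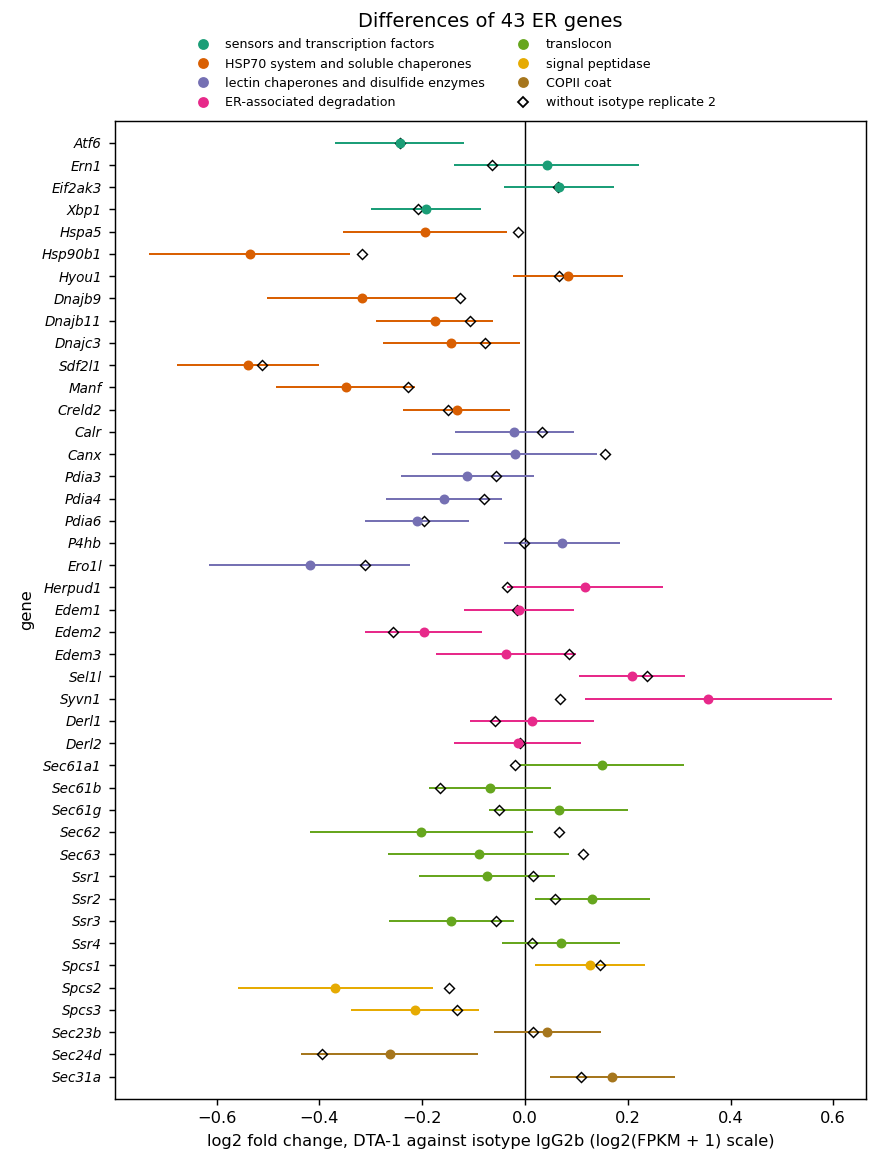
Log2 fold change (DTA-1 against isotype, log2(FPKM + 1) scale) of the 43 tested ER genes in rows, as coloured points with bars of 1 SE, and the same value without isotype replicate 2 as open diamonds. Sdf2l1 lies at -0.54 and -0.51, whereas Hspa5, Syvn1, Sec61a1 and Sec62 move to within 0.07 of 0.

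No gene of the translocon had separate groups. Of the 9 genes, 4 lay above and 5 below 0, and their summed level was 1180 ± 64.96 FPKM with the isotype and 1184 ± 22.1 FPKM with DTA-1 (SD, n = 3). Sec61a1, the channel itself, had the highest log2 fold change at 0.15, from 143, 96.6 and 133 FPKM with the isotype and 130.3, 148 and 130.4 FPKM with DTA-1. Sec62, which helps proteins enter after translation, had the lowest at -0.20, from 34.0, 62.9 and 37.3 FPKM against 36.3, 35.6 and 40.1 FPKM. Both differences rest on isotype replicate 2, the lowest library for Sec61a1 and the highest for Sec62, and became -0.02 and 0.07 without it. The small channel subunit Sec61b, the most abundant gene of the role, measured 296, 235 and 281 FPKM against 257, 257 and 256 FPKM, a log2 fold change of -0.07, or -0.17 without isotype replicate 2. Sec61g, Sec63 and the translocon-associated Ssr1, Ssr2, Ssr3 and Ssr4 lay between -0.14 and 0.13, and between -0.06 and 0.11 without isotype replicate 2.

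The 3 signal peptidase genes went different ways. Spcs2, an accessory subunit, had a log2 fold change of -0.37 (SE 0.19; limma adjusted p = 0.443), from 103, 172 and 114 FPKM with the isotype and 93.1, 94.7 and 105 FPKM with DTA-1. Isotype replicate 2 is far above the rest, and -0.15 was left without it. Spcs1, another accessory subunit, measured 68.7, 76.5 and 78.7 FPKM with the isotype and 84.4, 79.7 and 80.3 FPKM with DTA-1. The groups are separate by 1.05 FPKM and overlap once the GC and length trend is removed. The log2 fold change was 0.13 (SE 0.11), and 0.07 without isotype replicate 1. Spcs3 had overlapping groups and a log2 fold change of -0.21, or -0.13 without isotype replicate 2.

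Among the COPII genes, which build the vesicle coat for export to the Golgi, the groups overlapped for all 3. Sec31a, of the outer coat, measured 40.9, 36.1 and 41.1 FPKM with the isotype and 48.2, 45.5 and 39.6 FPKM with DTA-1, a log2 fold change of 0.17 (SE 0.12), or 0.11 without either isotype replicate 2 or DTA-1 replicate 1. Sec24d, a cargo-binding subunit, measured 13.7, 9.001 and 10.8 FPKM against 7.78, 10.5 and 8.97 FPKM, a log2 fold change of -0.26 (SE 0.17). It ran from -0.39 without isotype replicate 2 to -0.12 without isotype replicate 1. Sec23b, of the inner coat, was the most abundant of the 3, at 46.2, 42.6 and 44.1 FPKM against 45.7, 47.3 and 43.95 FPKM. Its values differ by less than the spread between replicates.

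Measured per transcript length, the ER genes were abundant in these cells. The median of their mean levels over all libraries was 78.3 FPKM, at percentile 89.2 of the tested genes, whose median was 14.2 FPKM. Of the 43 genes, 21 were among the 1051 most abundant of the 10501 tested genes. Calr led with 608.8 FPKM, followed by Hsp90b1 (486 FPKM), Hspa5 (448 FPKM), Ero1l (358 FPKM), Canx (355 FPKM), Pdia3 (294 FPKM) and Sec61b (264 FPKM). The library ranges of neighbours in this order overlap, and the first break falls between Sec61b and P4hb (207 FPKM). The other breaks fall between Spcs1 (78.0 FPKM) and Herpud1 (60.3 FPKM), between Creld2 (59.8 FPKM) and Edem1 (46.2 FPKM), and between Edem3 (9.61 FPKM) and Derl3 (0.291 FPKM). Chaperones, disulfide enzymes and channel subunits fill the upper end. The sensors Atf6 (13.7 FPKM) and Eif2ak3 (11.9 FPKM), with Sec24d (10.1 FPKM) and Edem3, were the lowest genes above the filter.

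The rest of the pathway was followed in 8 further lists of 111 genes, 107 of them tested. None passed the adjusted p in limma. At an unadjusted p under 0.05, 6 lay higher (5.61%, against 6.22% of all genes) and 2 lower (1.87%, against 7.73%). The groups did not overlap for 10 higher genes (9.35%, against 11.2%) and 3 lower ones (2.80%, against 10.5%). Their median log2 fold change was 0.05, with 70 above 0 and 37 below.

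The arm downstream of PERK, with ATF4 and CHOP, had the highest median of these lists, 0.27 over 10 genes. Of them, 8 lay above 0, as did 5527 of all 10501 tested genes. Ppp1r15a, the stress-induced phosphatase subunit GADD34 that reverses the PERK signal, measured 8.08, 8.03 and 12.2 FPKM with the isotype and 16.3, 14.7 and 14.3 FPKM with DTA-1. The groups do not overlap, isotype replicate 3 is the nearest to them, and the log2 fold change was 0.65 (SE 0.17; limma adjusted p = 0.157). The other genes of this arm whose levels are given here were picked after their values were seen. Atf4, the transcription factor of the arm, measured 261, 255 and 334 FPKM against 333, 373 and 352 FPKM, a log2 fold change of 0.32 (SE 0.13; limma adjusted p = 0.332). Its groups overlap by 0.9 FPKM, through isotype replicate 3 and DTA-1 replicate 1. Trib3, a pseudokinase target of ATF4, measured 10.4, 8.04 and 11.6 FPKM against 18.3, 12.3 and 12.7 FPKM, with separate groups and DTA-1 replicate 1 standing high. With all libraries its log2 fold change was 0.48, and without that one 0.31. Without isotype replicate 2, the log2 fold changes of Ppp1r15a, Atf4 and Trib3 were 0.56, 0.25 and 0.35.

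Not every gene of that arm lay higher. Nupr1, a stress-induced chromatin protein, measured 139, 142 and 137 FPKM with the isotype and 101, 116 and 120.1 FPKM with DTA-1, with separate groups and a log2 fold change of -0.31 (SE 0.11; limma adjusted p = 0.263). Ddit3, which encodes CHOP, measured 14.4, 29.1 and 29.9 FPKM against 26.4, 29.4 and 31.1 FPKM. Isotype replicate 1 is the low library, and the log2 fold change of 0.30 became -0.03 without it. Without isotype replicate 2 it was 0.45. The groups overlapped for the remaining genes of the arm. Their log2 fold changes were 0.09 (Asns), 0.09 (Ppp1r15b), -0.02 (Eif2s1), 0.25 (Chac1) and 0.38 (Sesn2). ATF4 and its targets are known to respond to amino acid shortage as well as to ER stress, and the part of either was not tested.

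In the other lists, the gene with the lowest p of each is given. Tusc3, a subunit of the oligosaccharyltransferase that adds N-glycans, measured 45.4, 48.0 and 47.9 FPKM with the isotype and 68.0, 64.8 and 66.3 FPKM with DTA-1. Both groups are tight and 16.8 FPKM apart, with a log2 fold change of 0.49 (SE 0.10; limma adjusted p = 0.108). Its adjusted p ran from 0.0174, with quality weights, to 0.366 over the alternatives. The median of the 12 genes of that list was 0.03. Sec23a, the paralog of the inner coat gene Sec23b, measured 10.4, 11.4 and 10.7 FPKM against 15.6, 14.1 and 13.8 FPKM. Its groups are separate, with a log2 fold change of 0.39 (SE 0.11; limma adjusted p = 0.184, and 0.0483 to 0.494 over the alternatives), whereas Sec23b lay at 0.04.

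Of the genes named from the remaining lists, Tram1 alone had separate groups. Tram1, which helps nascent chains into the channel, measured 68.8, 74.3 and 62.7 FPKM with the isotype and 53.0, 58.2 and 59.3 FPKM with DTA-1, with separate groups and a log2 fold change of -0.27 (SE 0.11; limma adjusted p = 0.355). Fkbp2, an ER prolyl isomerase, lay at -0.45 (SE 0.20), Rnf5, a membrane ubiquitin ligase, at 0.31 (SE 0.17), Creb3l1, a relative of ATF6, at 0.35 (SE 0.18) and Srp54c, of the signal recognition particle, at -0.29 (SE 0.14). The groups of these 4 genes overlap. Fkbp2 lay at -0.26 without isotype replicate 2, and Rnf5 and Creb3l1 lay at 0.15 and 0.175 without DTA-1 replicate 1. The medians of their lists ran from -0.09 for the signal recognition particle to 0.07 for ATF6 processing and its relatives. Srp54c has near-identical copies, and Srp54b was listed at 0 in all libraries, so the split between them is uncertain.

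**Figure D5:**
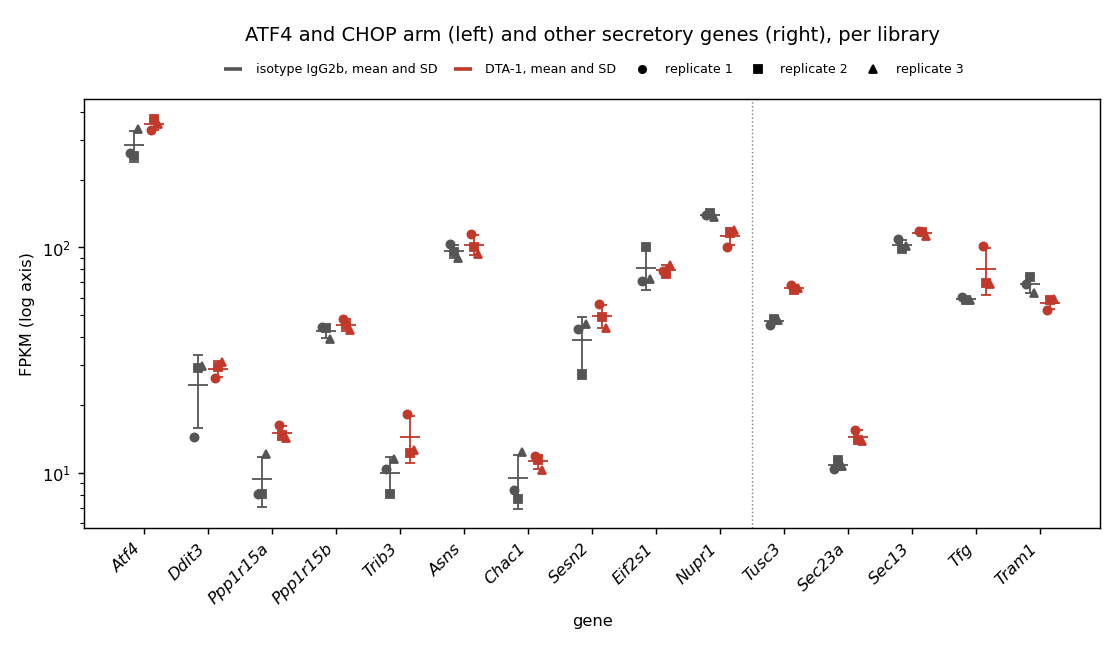
Level in each library of the 10 genes of the ATF4 and CHOP arm (left of the dotted line) and of 5 other secretory genes (right), in FPKM on a log axis, isotype in grey and DTA-1 in red, with lines for the mean and SD of 3 libraries. All 5 genes on the right have separate groups, whereas the groups of 94 of the 107 tested genes of these lists overlap. Sec13 and Tfg do not have the lowest p of their list. The 3 DTA-1 values of Tusc3 (64.8 to 68.0 FPKM) and Ppp1r15a (14.3 to 16.3 FPKM) all lie above the isotype values, and those of Nupr1 (101 to 120.1 FPKM) below them.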

How the data were processed

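Each sample has a table, made by the authors, of gene symbols and their expression values. Its unit is not named, and the deposited values were taken as FPKM because the steps between low values shrink in proportion as transcripts get longer. The submitters' processing notes name TopHat and mm10. Which program computed the deposited FPKM, with which annotation and use of strand, is not given in the sources used here. A directional kit was used, per the labels' protocols. All 44 ER genes have a GENCODE M21 position on GRCm38 (mm10), and 15 share exon bases with another gene, 3 of them on the same strand, so their FPKM are less certain.

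The test was limma 3.58.1 (R 4.3.3) on log2(FPKM + 1) for genes that reached 1 FPKM in 3 or more libraries (empirical Bayes with trend and robust moderation, group as the single term, 2-sided, Benjamini-Hochberg over all 10501 tested genes, threshold 0.05). Fold changes on this scale understate those of low genes. The values are not counts, so no count test was run. The ER genes and all lists were chosen with earlier results of these data known, so none is independent support for a pattern. Levels in every library are given for the sensors, for 5 key genes (Xbp1, Hspa5, Hsp90b1, Calr and Herpud1), for genes whose groups do not overlap or whose unadjusted p is under 0.05, and for the highest and lowest fold change and the highest level of each role. In the other lists the gene with the lowest p is named.

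The alternatives were a pseudocount of 0.1, no filter, a mean of at least 5 FPKM, scaling to equal upper quartiles or totals, the replicate number as a block, library quality weights, removal of a smooth trend on GC content and length (mgcv 1.9.3, added after the data were seen) and leaving out each library. GC content was known for 99.5% of tested genes. The code was tested on simulated data. Protein sequences were not analysed here. Figures were drawn with matplotlib 3.10.9.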

Additional observations from a re-analysis of the deposited data

How the results depend on the processing

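Over the 14 alternatives, 29 of the 43 tested ER genes kept the sign of their log2 fold change, among them the 8 with every DTA-1 library lower and the 3 with every DTA-1 library higher. For genes with separate groups, only scaling and removal of the GC and length trend could turn the sign. The other alternatives keep it by construction. The 14 others had values of at most 0.20 in size. With quality weights, 1 ER gene passed the adjusted p lower (Sdf2l1) and 2 other pathway genes higher (Sec23a and Tusc3), with 161 higher and 314 lower calls over all genes. The counts at an unadjusted p among ER genes were then 1 higher (all genes 8.93%) and 6 lower (10.6%). Removing the GC and length trend left 1 higher call over all genes, as did the lack of a filter. Removing the trend gave 1 ER gene higher at an unadjusted p (all genes 8.52%). Among other pathway genes it gave 1 lower at an unadjusted p (all genes 8.82%) and a median of 0.069. There, 17 were separate higher (all genes 14.2%) and 6 separate lower (11.8%). Scaling gave 2 lower calls over all genes, by upper quartile and by totals. Totals, which put the median of all genes at -0.02, left 1 ER gene separate higher (all genes 11.2% without scaling). The medians were -0.11 (ER) and 0.018 (other).

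Leaving out 1 library in turn gave 0 to 3 higher and 0 to 1 lower calls over all genes. ER genes numbered 0 to 1 higher and 1 to 6 lower at an unadjusted p, and 3 to 8 higher and 9 to 13 lower without overlap, with medians from -0.113 to -0.051. Over all genes the shares were 3.53% to 7.18% and 5.39% to 8.75% at an unadjusted p, and 13% to 19.2% and 12% to 16.9% without overlap. Other pathway genes numbered 3 to 8 higher and 0 to 3 lower at an unadjusted p, and 13 to 21 higher and 3 to 9 lower without overlap, with medians from 0.037 to 0.077. Fewer libraries separate more genes by construction. The single count of 1 lower ER gene came with DTA-1 replicate 1 or DTA-1 replicate 2 left out.

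Signs turned with a library left out for Ern1 (-0.085 to 0.195), Calr (-0.094 to 0.034), Canx (-0.113 to 0.156), P4hb (-0.002 to 0.12), Herpud1 (-0.035 to 0.24), Edem1 (-0.046 to 0.030), Edem3 (-0.113 to 0.085), Derl1 (-0.059 to 0.074), Derl2 (-0.080 to 0.068), Sec61a1 (-0.020 to 0.261), Sec61g (-0.051 to 0.161), Sec62 (-0.369 to 0.066), Sec63 (-0.203 to 0.112), Ssr1 (-0.146 to 0.016) and, of the other pathway genes named, Ddit3 (-0.031 to 0.471). With quality weights signs turned for Canx (0.106), Herpud1 (-0.043), Edem1 (0.029), Edem3 (0.021), Derl1 (-0.001), Sec61g (-0.028), Sec63 (0.018) and Ssr1 (0.024). They turned for Canx (0.055) and Derl2 (0.054) with the GC trend removed, and for Derl1 with scaling (-0.003 and -0.019). Quality weights also put Ppp1r15a at 0.41, Trib3 at 0.20, Tram1 at -0.16, Rnf5 at 0.08 and Creb3l1 at 0.09. The cause was not tested.

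The replicate number as a block gave 59 higher and 126 lower calls over all genes, none of them an ER gene. With it, 1 other pathway gene lay lower at an unadjusted p (all genes 7.73% without the block). Whether equal numbers share a source is not stated. Deviations of same-numbered libraries from their group means correlated at 0.39, -0.10 and -0.13. Isotype replicates 2 and 3 correlated best with another number. Such correlations cannot decide the pairing, because deviations from the mean of so few libraries depend on each other. Derl3 did not reach the filter of 1 FPKM in 3 or more libraries, and was fitted only in the alternative without a filter.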
